A study of Mus musculus with 24 samples.

Results

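Mouse small-intestinal organoids were treated for 6 h with dFz7-21, a peptide that the series describes as a blocker of the Wnt receptor Frizzled 7, or with DMSO, the solvent control. The comparison uses the 4 libraries titled for dFz7-21 at 6 h and the 4 titled for DMSO at 6 h, which are 8 of the 24 libraries of the series, each made from polyadenylated RNA. A further 4 libraries at 6 h received Fz7-21S, about which the labels give the name alone, and 4 libraries each of DMSO and dFz7-21 at 24 h show the later effect. All groups are primary organoids and carry no labelled genetic change. The labels give no dose, medium, mouse strain or age, and nothing in them ties replicates to different cultures or animals. P-values therefore describe only how far these samples vary, and part of that variation may be technical.

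Wnt ligands bind Frizzled receptors together with the co-receptors Lrp5 and Lrp6, which stabilises beta-catenin and lets it act with TCF factors on target genes. In the small intestine this signal is strongest at the crypt base, where it keeps Lgr5-expressing stem cells, and many of its targets are themselves inhibitors of the pathway. Bone morphogenetic proteins (BMPs) form an opposing gradient that is strongest towards the villus, acts through Smad1, Smad5 and Smad9, and induces the Id genes and the inhibitory Smads.

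Total counts per library ran from 23.8 M to 30.4 M in the 8 libraries, and the counts of libraries within a group varied beyond sampling noise (3.91 to 13.6 in chi-square divided by its degrees of freedom). Levels are CPM, the reads of a gene scaled to a common library size with TMM factors, and a count of 3 equals 0.0987 to 0.126 CPM. The summed level of the 19 epithelial genes examined was 24588 to 27833 CPM with DMSO and 29928 to 31102 CPM with dFz7-21. Transcripts of mesenchymal cells were present in DMSO replicates 1 and 2: the summed level of 26 mesenchymal genes was 441 and 443 CPM there, 15.8 and 17.3 CPM in DMSO replicates 3 and 4, and 15.6 to 19.2 CPM with dFz7-21. Col1a1, a fibrillar collagen chain, stood at 80.6, 10.2, 0.125 and 0.395 CPM in the 4 DMSO libraries in order of replicate, and Vim, the intermediate filament of mesenchymal cells, at 53.3, 100.2, 4.94 and 5.34 CPM. The defining mesenchymal genes Dcn and Lum had no reads in any of the 8 libraries. Counts and calls are therefore also given without DMSO replicates 1 and 2. Unless stated otherwise these come from the other 10 libraries at 6 h, a fit that leaves out the 24 h libraries as well and so differs in 2 choices. The 22-library fit leaves out only these 2 libraries.

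**Figure D1:**
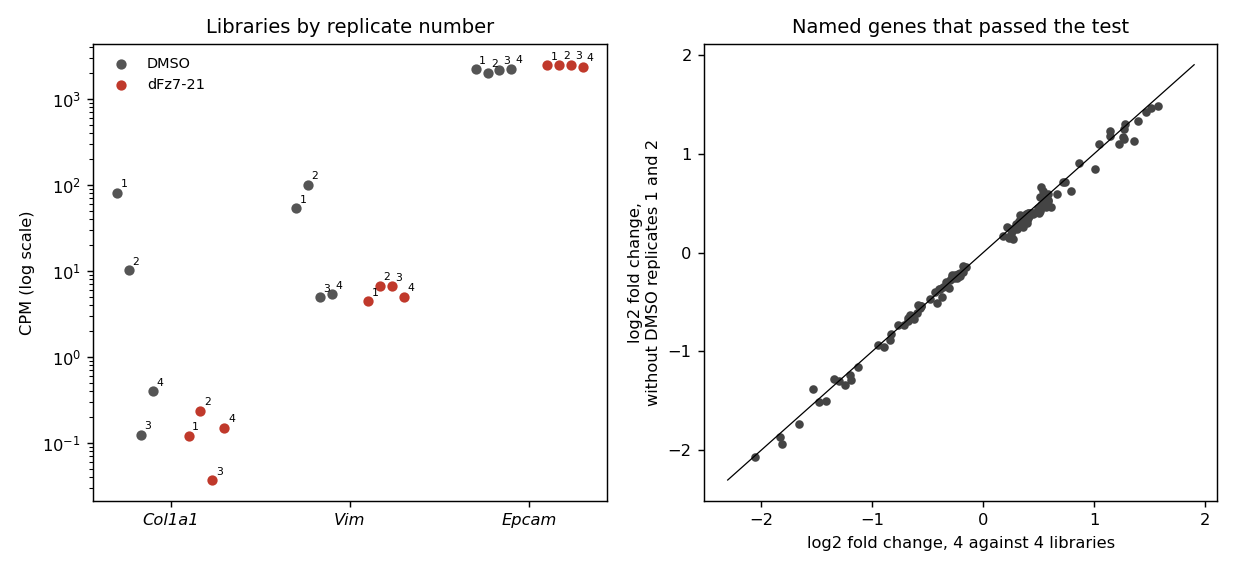
The left panel plots CPM on a log axis for Col1a1, Vim and the epithelial gene Epcam in each of the 8 libraries, with DMSO and dFz7-21 in separate colours and the replicate number beside each point. DMSO replicates 1 and 2 sit above the other 6 libraries for Col1a1 and Vim. The right panel plots, for the named genes that passed the test, the log2 fold change without DMSO replicates 1 and 2 against that with all 4, and the points lie along the line of equality.

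At 6 h, genes of the crypt-base stem cell and Wnt targets were lower than with DMSO, among them Lgr5, Sp5, Ascl2 and Smoc2, while Id1, Id2, Id3 and Smad6 of the BMP response were more than 2-fold higher. Genes of DNA replication fell together, and genes of EGF receptor signalling, cholesterol synthesis and the immediate early response were more often higher than lower. Of 15429 genes tested with edgeR's quasi-likelihood test and Benjamini-Hochberg adjustment over all of them, 1704 passed an adjusted p of 0.05, which is 11.0% of those tested. Of these, 933 (6.05%) were higher and 771 (5.0%) lower with dFz7-21. Changes were mostly small. The absolute log2 change of a called gene had a median of 0.34, 42 rose and 31 fell at least 2-fold, and the median over all tested genes was 0.01.

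The count of called genes depended on the libraries fitted. A fit of the 8 libraries alone called 3640 of 14629 genes (24.9%), of which 1841 (12.6%) were higher and 1799 (12.3%) lower, and 764 of the 771 and 925 of the 933 genes above were among them. Without DMSO replicates 1 and 2, the 10 libraries at 6 h gave 2560 calls among 15213 genes (16.8%, with 8.66% higher and 8.17% lower). All 933 higher genes, and the 767 of the 771 lower genes that were tested there, kept their direction, and 787 and 706 of them passed again. The 22-library fit left 654 calls among 15820 genes (4.13%, with 2.07% higher and 2.06% lower), with 319 and 324 genes shared. It keeps the 24 h libraries, which the 10-library fit leaves out, and the part of each choice was not tested. Of 117 named genes that passed in all 24 libraries, 2 (Krt20 and Kif20a) did not pass in the 10 libraries and 34 did not in the 22. Counts of list members below move with these totals. The lists were chosen with earlier results of these data known, so their counts describe the lists and test nothing. Over all tested genes, the 4 dFz7-21 libraries lay above the 4 DMSO libraries without overlap for 2112 (13.7%) and below them for 1661 (10.8%).

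**Figure D2:**
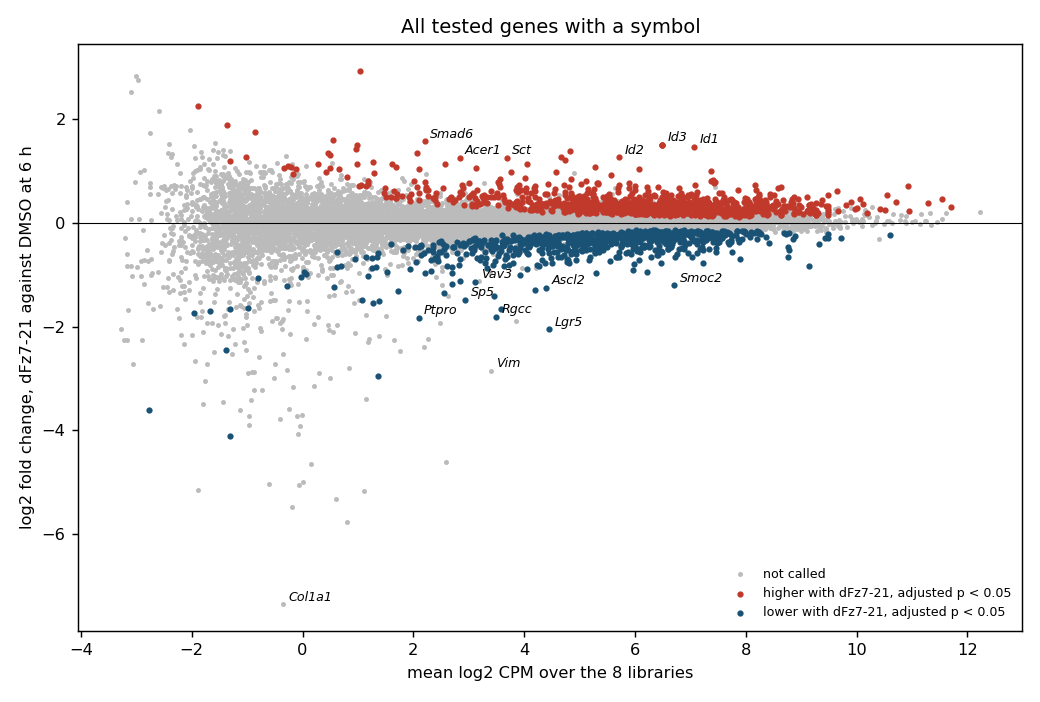
Each point is a tested gene with a symbol, with its mean log2 CPM over the 8 libraries on the x axis and its log2 fold change (dFz7-21 against DMSO at 6 h) on the y axis; coloured points passed an adjusted p of 0.05. Lgr5 (-2.05), Ptpro (-1.83) and Rgcc (-1.81) lie low and Smad6 (1.58), Id3 (1.51) and Id1 (1.47) high, and Col1a1 and Vim lie far below 0 without passing the test.

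Lgr5, the R-spondin receptor that marks crypt-base stem cells (chromosome 10, 115450314 to 115587780 on GRCm38), stood at 38.6, 50.4, 44.8 and 43.9 CPM in the DMSO libraries and at 10.3, 11.4, 10.1 and 10.99 CPM in the dFz7-21 libraries. The highest dFz7-21 library was well below the lowest DMSO library. Lgr5 was 4.15-fold lower, a log2 change of -2.05 ± 0.18 (SE, n = 4 and 4, adjusted p = 3.65e-08). Smoc2, a matricellular protein of the same cells (chromosome 17, 14279490 to 14404790), was measured at 149.96, 162, 164 and 157 CPM with DMSO and 66.2, 69.1, 67.03 and 72.7 CPM with dFz7-21. The libraries of each group lay close together and the groups did not overlap, and the log2 change was -1.20 ± 0.06 (adjusted p = 1.38e-11). In bulk samples, fewer cells of a type and less RNA per cell cannot be told apart.

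Ascl2, the transcription factor that maintains these stem cells (chromosome 7, 142966822 to 142969264), stood at 31.01, 29.9, 35.95 and 32.9 CPM with DMSO and at 11.2, 15.4, 11.8 and 16.2 CPM with dFz7-21, without overlap. Its log2 change was -1.25 ± 0.17 (adjusted p = 2.26e-05). Pcdh8, a protocadherin (chromosome 14, 79766772 to 79771312), went from 4.77, 8.496, 7.06 and 7.11 CPM to 0.9303, 0.906, 0.997 and 0.715 CPM, the lowest fold change on the stem cell list at -2.95 ± 0.29 on the log2 scale (adjusted p = 3.01e-07). Its level was below the expression minimum for the genes ranked by fold. With DMSO replicates 1 and 2 left out, the log2 changes were -2.06 for Lgr5, -1.24 for Smoc2, -1.34 for Ascl2 and -3.00 for Pcdh8, and all 4 passed.

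Of the 35 genes on the Lgr5 stem cell list, all tested, 23 fell and 2 rose, beside 5.0% lower and 6.05% higher over all genes. Their median log2 change was -0.56, against 0.01 over all genes. Tnfrsf19, a receptor of the tumour necrosis factor family, fell by 1.30 on the log2 scale, the water channel Aqp4 from 21.5 to 10.7 CPM, and the ion cotransporter Slc12a2 from 759 to 426 CPM. Lrig1, a membrane inhibitor of EGF receptors, fell from 197 ± 12.2 to 116 ± 6.58 CPM, and the RNA-binding proteins Msi1 and Mex3a fell by 0.58 and 0.47. The 2 members that rose were Ets2, a transcription factor (0.16), and P2rx4, an ATP-gated channel (0.25). The counts without DMSO replicates 1 and 2 were 26 lower and 4 higher, and in the 22-library fit 18 fell and 1 rose.

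Olfm4, a secreted glycoprotein abundant in stem cells (chromosome 14, 80000302 to 80023141), did not pass the test at 6 h. It stood at 1607, 1507, 1441 and 1452 CPM with DMSO and at 1091, 1224, 1305 and 1257 CPM with dFz7-21, so each dFz7-21 library was below each DMSO library. The log2 change was -0.30 ± 0.13, with a 95% interval of -0.56 to -0.04 (adjusted p = 0.15). It passed in the 8 libraries alone (adjusted p = 0.00023) and in the 10 without DMSO replicates 1 and 2 (log2 change -0.26, adjusted p = 0.0017), but not in the 22-library fit (adjusted p = 0.57).

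**Figure D3:**
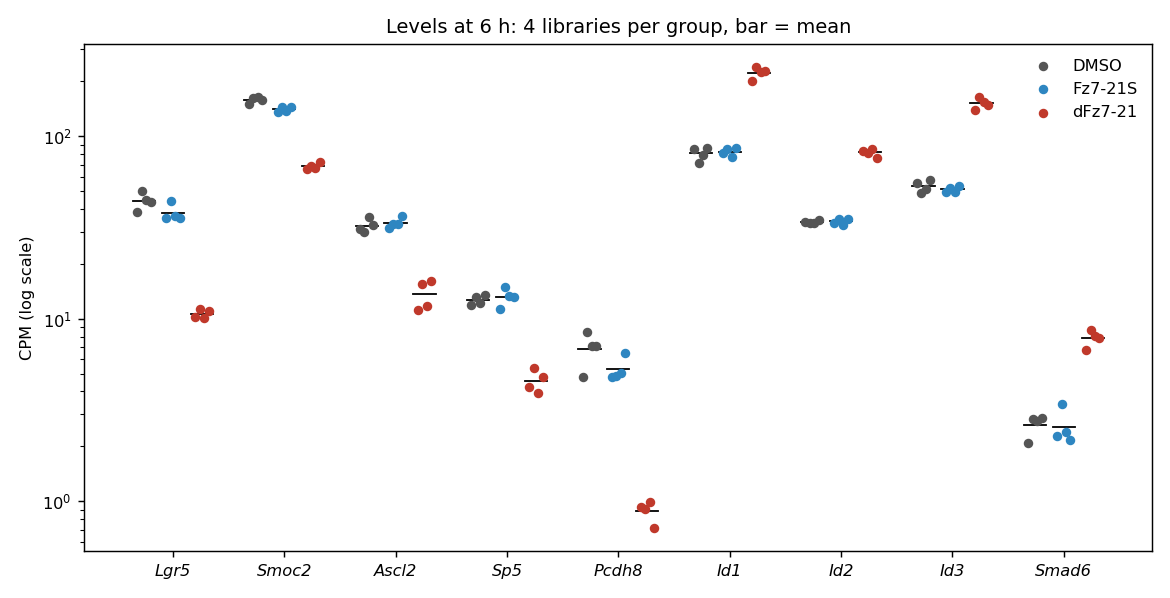
Points are CPM per library on a log axis for 9 genes, in the DMSO, Fz7-21S and dFz7-21 groups at 6 h (4 libraries each), and bars are group means. For Lgr5, Smoc2, Ascl2, Sp5 and Pcdh8 the dFz7-21 points lie below both other groups, and for Id1, Id2, Id3 and Smad6 they lie above both.

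Among the Wnt targets examined, Sp5 fell most after Lgr5. Sp5 encodes a zinc finger transcription factor that represses other Wnt targets (chromosome 2, 70474923 to 70477726), and it stood at 11.9, 13.1, 12.3 and 13.5 CPM with DMSO and 4.21, 5.36, 3.91 and 4.78 CPM with dFz7-21. The groups did not overlap, and the log2 change was -1.48 ± 0.15 (adjusted p = 3.01e-07). The 250 bases before its start, from RefSeq on GRCm38.p6, are printed because they hold 2 copies of CTTTGA, the core of the motif bound by TCF and LEF factors, searched on both strands and shown in capitals at 204 and 104 bases before the start (chr2:70474673-70474922, plus strand).
Sp5: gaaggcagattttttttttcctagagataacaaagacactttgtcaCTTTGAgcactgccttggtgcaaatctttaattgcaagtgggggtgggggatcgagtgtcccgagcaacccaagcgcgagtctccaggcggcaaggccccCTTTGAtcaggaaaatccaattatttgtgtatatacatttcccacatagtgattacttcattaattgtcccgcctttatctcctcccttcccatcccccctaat
The 6 letters of this motif occur in 1257 of 11334 promoters of that length (11.1%), in 2 of 16 Wnt targets with a promoter in the table and in 3 of 26 stem cell genes. No match was found in the windows of Axin2, Ascl2 and Rnf43, which says only that these letters are not there. The Axin2 window (chr11:108920099-108920348, plus strand) lies inside its gene model, which begins at 108917828, so the bases before that gene were not searched.

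Of the Wnt targets, 27 were tested, 14 fell and 1 rose, with a median log2 change of -0.22, beside 5.0% lower and 6.05% higher over all genes. This list shares 10 members with the stem cell list. The transcription factors Sox9 and Sox4 fell by 0.61 and 0.59, Ephb3 and Ephb2, receptors that sort cells along the crypt, by 0.56 and 0.33, and Tcf7, a TCF factor, by 0.32. Axin2, a scaffold of the beta-catenin destruction complex and a common reporter of Wnt activity (chromosome 11, 108917828 to 108950783), stood at 259.9, 284, 266 and 258 CPM with DMSO and 199, 225, 189.9 and 217 CPM with dFz7-21. The groups did not overlap, but the fall was small, with a log2 change of -0.36 ± 0.11 (adjusted p = 0.029). Leaving out any of DMSO replicates 1, 2 or 3 or of dFz7-21 replicates 1 or 3 ended the call. Without both DMSO replicates 1 and 2 it passed in the 10 libraries at 6 h (adjusted p = 8.42e-05) and not in the 22-library fit (adjusted p = 0.22).

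Rnf43 and Znrf3, ubiquitin ligases that clear Frizzled from the membrane, had log2 changes of -0.26 ± 0.06 (adjusted p = 0.0057) and -0.35 ± 0.12 (adjusted p = 0.071). Myc, a growth factor-responsive transcription factor, stood at 236 ± 9.34 CPM against 262 ± 7.39 CPM (adjusted p = 0.036), and leaving out any of 7 of the 8 libraries, all but dFz7-21 replicate 2, ended that call. Rnf43 and Myc did not pass in the 22-library fit (adjusted p = 0.089 and 0.26). Ccnd1, cyclin D1, fell by 0.21. Nkd1, an inhibitor of Dishevelled, had a log2 change of 0.07 ± 0.23 and did not pass. Tbx3, a T-box repressor that is also on the BMP response list, was the 1 member that rose, from 47.99, 49.8, 45.2 and 43.9 CPM to 97.5, 103, 93.2 and 92.1 CPM, and its libraries did not overlap between groups (log2 change 1.04 ± 0.07). In the fit without DMSO replicates 1 and 2, 16 members of the list fell and 2 rose, and in the 22-library fit 8 fell and 1 rose.

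Of 36 tested Wnt ligands, receptors and transducers, 2 rose and 1 fell (median -0.02), shares near the 6.05% higher and 5.0% lower of all genes. With DMSO replicates 1 and 2 left out, 2 rose and 4 fell, and in the 22-library fit 1 rose and 1 fell. Fzd7, the receptor that dFz7-21 is described to block (chromosome 1, 59482147 to 59486955), stood at 45.7, 50.2, 47.8 and 46.1 CPM with DMSO and 46.6, 49.1, 49.8 and 50.1 CPM with dFz7-21. These levels overlapped, and the log2 change of 0.04 ± 0.12 had a 95% interval of -0.20 to 0.29. Since the peptide acts on the protein, this level does not check the labels. On the authors' RPKM scale, which is per length, Fzd5 was the most abundant Frizzled transcript (25.1 ± 1.59 RPKM with DMSO and 24.8 ± 0.993 with dFz7-21, SD, n = 4), followed by Fzd7 at 9.85 ± 0.435 and 10.2 ± 0.324 RPKM. Fzd6 and Fzd9 stood at 4.08 ± 0.42 and 4.09 ± 0.391 RPKM with DMSO, which differ by less than the spread of Fzd9, and the others at 1.41 RPKM or less. None of the 10 Frizzled genes passed the test.

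The 3 Wnt pathway components that passed were Wnt3, the ligand made by Paneth cells, Tcf7l2, the main TCF factor of the gut epithelium, and Csnk1a1, a kinase of the destruction complex. Wnt3 (chromosome 11, 103774175 to 103818021) stood at 13.2, 13.8, 15.4 and 15.1 CPM with DMSO and 9.79, 10.8, 11.1 and 11.3 CPM with dFz7-21, without overlap. Its log2 change was -0.42 ± 0.11 (adjusted p = 0.014), and the call was lost without dFz7-21 replicate 1. Tcf7l2 rose by 0.33 on the log2 scale (adjusted p = 0.0019). Csnk1a1 rose by 0.18 (adjusted p = 0.018), a call lost without DMSO replicate 2 or dFz7-21 replicates 1 or 3.

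Genes of the BMP response were among those that rose most. Id1, an inhibitor of basic helix-loop-helix factors and a direct target of BMP Smads (chromosome 2, 152736251 to 152737410), stood at 85.1, 71.9, 79.1 and 86.5 CPM with DMSO and 201, 239.9, 225 and 227 CPM with dFz7-21. All 4 dFz7-21 libraries were more than 2-fold above the DMSO mean of 80.7 CPM, and the log2 change was 1.47 ± 0.13 (adjusted p = 5.36e-08). Id2, of the same family (chromosome 12, 25093799 to 25096092), went from 33.8, 33.3, 33.3 and 34.9 CPM to 83.6, 81.5, 85.3 and 76.2 CPM. Both groups were narrow and far apart (log2 change 1.27 ± 0.07, adjusted p = 7.40e-11). Id3 rose from 53.4 ± 3.94 to 152 ± 10.5 CPM (log2 change 1.51 ± 0.12), but 3 gene models in the files share its values, so its level is uncertain.

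Smad6, an inhibitory Smad that BMP signalling induces (chromosome 9, 63953076 to 64022085), stood at 2.1, 2.82, 2.74 and 2.85 CPM with DMSO and 6.75, 8.71, 8.08 and 7.87 CPM with dFz7-21. The groups did not overlap at this low level, and the log2 change was 1.58 ± 0.19 (adjusted p = 4.62e-06). Smad7, the other inhibitory Smad, rose by 0.86 and Smad9, which carries the BMP signal, by 1.51, from 1.13 ± 0.293 to 3.23 ± 0.434 CPM. Msx1, a homeobox target of BMP, rose by 1.43 from 1.14 ± 0.241 to 3.09 ± 0.412 CPM. Of 12 tested members of the 16 on this list, 8 rose and none fell (median 1.16), beside 6.05% higher over all genes, and 4 members had too few reads to be tested. The 4 tested members not called included Bambi, a BMP pseudoreceptor that is also a Wnt target, at -0.22 ± 0.14 on the log2 scale (adjusted p = 0.40). Leaving out DMSO replicates 1 and 2, 9 rose, and in the 22-library fit 7 rose.

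The motif GGCGCC, the palindrome bound by Smad1 and Smad5 and searched in the same windows, was in 16.3% of all promoters and in 3 of the 7 BMP response genes with a promoter in the table. Id2 held 1 copy and Id3 and Smad6 held none. Among 22 tested BMP ligands, receptors and Smads, 4 fell and 2 rose (median -0.01), beside 5.0% lower and 6.05% higher over all genes. Those that fell were the co-receptors Rgmb and Rgma and the ligands Bmp3 and Bmp7, and those that rose were the ligand Bmp2 (0.56) and the ubiquitin ligase Smurf1 (0.35), which targets BMP Smads. Rgmb (chromosome 17, 15804661 to 15831246) stood at 98.05, 111, 104 and 98.97 CPM with DMSO and 51.1, 53.95, 51.7 and 57.3 CPM with dFz7-21, without overlap. Bmp7 (chromosome 2, 172868012 to 172940321) stood at 45.1, 46.7, 46.5 and 46.2 CPM and 26.5, 27.6, 29.4 and 28.8 CPM, also without overlap (log2 change -0.72 ± 0.09, adjusted p = 1.14e-05). In the libraries without DMSO replicates 1 and 2, 5 fell and 4 rose, and in the 22-library fit 4 fell and 1 rose.

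Genes of DNA replication and entry into S phase were lower as a group. Mcm6, a subunit of the replicative helicase (chromosome 1, 128331575 to 128359705), stood at 264, 271, 268 and 246 CPM with DMSO and 176, 176, 169 and 189.7 CPM with dFz7-21. The groups did not overlap, and the log2 change was -0.56 ± 0.05 (adjusted p = 3.65e-08). Of 34 members, all tested, 31 fell and none rose (median -0.44), beside 5.0% lower over all genes. The other helicase subunits Mcm2, Mcm3, Mcm4, Mcm5 and Mcm7 fell by 0.47 to 0.58, the origin licensing factors Cdc6 and Cdt1 by 0.65 and 0.52, and E2f1, a transcription factor of these genes, by 0.71. Pcna, the sliding clamp, fell by 0.30, and Tyms, which makes thymidylate, by 0.18. The members that did not pass were Tk1, E2f2 and E2f7. The count was 31 lower without DMSO replicates 1 and 2, and in the 22-library fit 23 fell.

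The E2F motif, taken as TTTCCCGC or TTTGGCGC on either strand, was in 7 of 28 replication promoters in the table, in 0 of 24 promoters of mitosis genes and in 2.47% of all 11334. The windows of 3 members that fell are printed in the direction of the gene, with the motif or its reverse complement in capitals, since they show how the matches lie. Mcm6 (chr1:128359706-128359955, minus strand) has matches starting 110 and 47 bases before the start, Mcm5 (chr8:75109259-75109508, plus strand) has 1 at 149 bases and Cdc6 (chr11:98907901-98908150, plus strand) has 1 at 138 bases. The start is that of the transcript in the RefSeq table, and the gene models of Mcm5 and Cdc6 begin upstream of it.
Mcm6: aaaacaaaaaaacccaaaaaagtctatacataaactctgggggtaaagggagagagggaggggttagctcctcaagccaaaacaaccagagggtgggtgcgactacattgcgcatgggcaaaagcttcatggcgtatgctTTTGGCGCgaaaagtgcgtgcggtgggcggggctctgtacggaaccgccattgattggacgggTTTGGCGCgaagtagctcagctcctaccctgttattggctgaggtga
Mcm5: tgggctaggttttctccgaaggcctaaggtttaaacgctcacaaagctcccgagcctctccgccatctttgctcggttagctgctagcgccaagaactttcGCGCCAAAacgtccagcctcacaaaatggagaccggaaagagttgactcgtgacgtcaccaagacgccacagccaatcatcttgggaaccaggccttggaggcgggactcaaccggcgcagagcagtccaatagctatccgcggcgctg
Cdc6: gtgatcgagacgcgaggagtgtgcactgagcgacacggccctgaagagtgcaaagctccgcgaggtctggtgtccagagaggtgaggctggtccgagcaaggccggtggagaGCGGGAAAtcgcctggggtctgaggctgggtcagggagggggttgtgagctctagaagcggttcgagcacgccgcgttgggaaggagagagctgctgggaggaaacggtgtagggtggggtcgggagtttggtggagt
Mcm2 and Mcm3, which fell as well, hold no match in their windows. The E2f1 window holds none either, but its bases read as coding sequence of the gene, so this says nothing of the bases before it.

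Of 30 genes of G2 and mitosis, all tested, 3 fell and none rose (median 0.00), beside 5.0% lower over all genes. Mki67, a marker of cycling cells (chromosome 7, 135689784 to 135716450), stood at 201, 207, 195 and 188 CPM with DMSO and 207, 207, 193 and 205 CPM with dFz7-21. These overlapped, and the 95% interval of the log2 change was -0.22 to 0.29. The 3 that fell were the checkpoint kinase Ttk (-0.43), the kinase Aurkb (-0.18) and the kinesin Kif20a (-0.18). Kif20a lost its call without DMSO replicates 1 or 2 or dFz7-21 replicate 3. Without both these DMSO libraries 2 of the list fell, and in the 22-library fit none passed edgeR's test, with 2 higher and 2 lower at an unadjusted p below 0.05.

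Regulators of G1 changed in both directions, with 4 higher and 6 lower of 29, beside 6.05% higher and 5.0% lower over all genes. Cdkn1a, the cyclin-dependent kinase inhibitor p21 (chromosome 17, 29090979 to 29100722), stood at 386, 379, 394 and 412 CPM with DMSO and 555, 593, 550.1 and 527 CPM with dFz7-21. The groups did not overlap (log2 change 0.50 ± 0.08, adjusted p = 5.59e-05). The inhibitor Cdkn2b, the Myc antagonist Mxd1 and the unusual cyclin Ccng2 rose by 0.35, 0.39 and 0.57. The kinases Cdk2 and Cdk4 both fell by 0.28, and the pocket protein Rbl1 fell by 0.38. The G1 counts without DMSO replicates 1 and 2 were 4 higher and 9 lower, and in the 22-library fit 3 rose and 1 fell. Of 32 ribosome biogenesis genes, 12 fell and none rose (median -0.18), among them the nucleolar proteins Nolc1 (-0.28) and Dkc1 (-0.25) and the RNA polymerase I subunit Polr1b (-0.32). That count changed with the libraries fitted: 26 fell in the 8 libraries alone, 23 without DMSO replicates 1 and 2 at 6 h, and 2 in the 22-library fit.

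**Figure D4:**
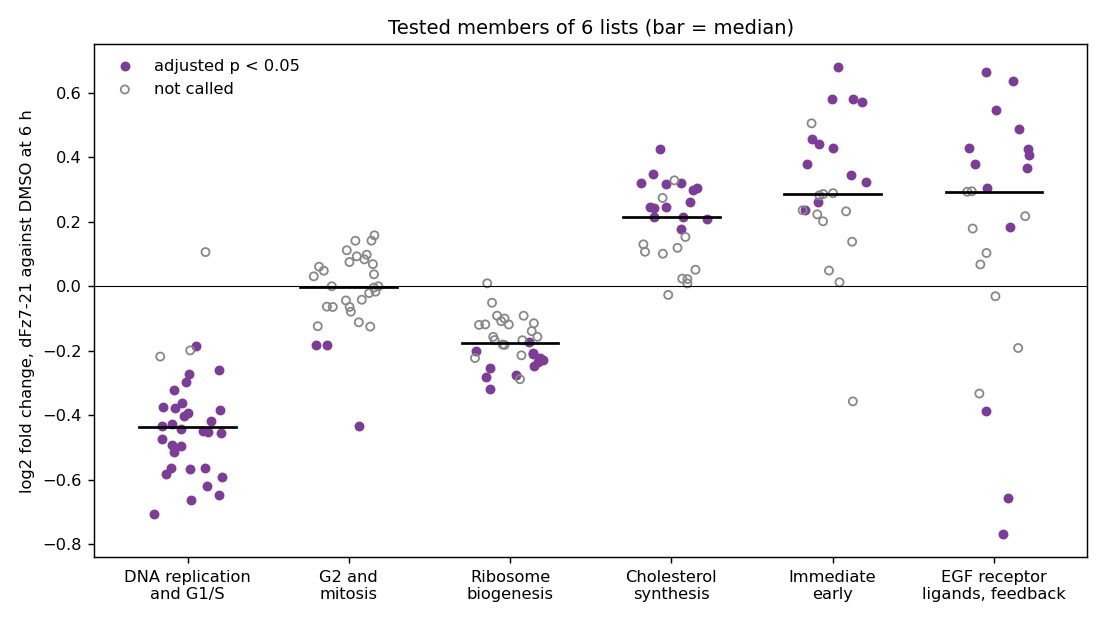
Points are the log2 fold changes (dFz7-21 against DMSO at 6 h) of the tested members of 6 gene lists, coloured by whether they passed the test, and bars are list medians. Of the DNA replication list, 33 of 34 members lie below 0 (median -0.44), with those of mitosis around 0 (0.00), those of ribosome biogenesis slightly below (-0.18), and those of cholesterol synthesis (0.22), the immediate early genes (0.29) and EGF receptor genes (0.29) mostly above.

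Of 7 tested ligands of EGF receptors 5 rose, as did the receptors Egfr and Erbb2, and Lrig1 and Lrig3 fell. Ereg and Areg, ligands encoded side by side on chromosome 5, rose by 0.66 and 0.64. Ereg stood at 30.3, 27.5, 31.7 and 31.5 CPM with DMSO and 49.1, 48.7, 50.05 and 43.9 CPM with dFz7-21, without overlap. The ligands Btc, Hbegf and Tgfa rose by 0.55, 0.42 and 0.41, and the receptors Egfr and Erbb2 by 0.49 and 0.18. The ligands Egf and Epgn did not pass (adjusted p = 0.64 and 0.77). The membrane inhibitor Lrig1 and its relative Lrig3 fell by 0.77 and 0.66. Errfi1 and the phosphatases Dusp4, Dusp5 and Dusp6, feedback inhibitors induced by the pathway, rose by 0.31 to 0.43. Of 23 tested members, 11 rose and 3, with the transcription factor Etv5 as the third, fell (median 0.29), beside 6.05% higher and 5.0% lower over all genes. Without DMSO replicates 1 and 2, 11 rose and 2 fell, and Dusp5 (adjusted p = 0.10) and Etv5 (adjusted p = 0.066) no longer passed. In the 22-library fit 5 rose (Ereg, Areg, Btc, Hbegf and Egfr) and 2 fell (Lrig1 and Lrig3).

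Immediate early genes, which respond fast to growth factors and stress, were higher: 12 of 24 rose and none fell (median 0.29), beside 6.05% higher over all genes. Junb (chromosome 8, 84976909 to 84978748), a subunit of the AP-1 factor, stood at 154, 143, 155 and 175 CPM with DMSO and 211, 261, 233 and 228 CPM with dFz7-21, and the groups did not overlap (log2 change 0.57 ± 0.09). Its partner genes Fos and Fosl1 rose by 0.44 and 0.68. The Krueppel-like factors Klf4, Klf6 and Klf10 rose by 0.58, 0.46 and 0.43. Of the 24, 13 rose without DMSO replicates 1 and 2, and in the 22-library fit 7 rose.

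Other crypt signals changed in a few members. Of 16 Eph receptors and ephrins, 5 fell and 2 rose, beside 5.0% lower and 6.05% higher over all genes. Epha2 (chromosome 4, 141301221 to 141329384) stood at 225, 217, 211 and 239 CPM with DMSO and 369, 388, 375 and 353 CPM with dFz7-21, without overlap (log2 change 0.74 ± 0.06, adjusted p = 3.65e-08). The ligands Efna3 and Efna4 fell by 0.80 and 0.62 and the receptor Ephb4 by 0.40, besides Ephb2 and Ephb3, and Efnb1, a ligand of the EphB receptors, rose by 0.23. Of the Eph and ephrin genes, 5 fell and 4 rose without DMSO replicates 1 and 2, and in the 22-library fit 4 fell and 1 rose. Of 19 tested Notch pathway genes, 4 fell and none rose: the glycosyltransferases Lfng (-0.67) and Rfng (-0.21), the regulator Dtx4 (-0.59) and the transcription factor Hes6 (-0.31). The calls of Rfng and Hes6 were lost when any of 5 and 6 single libraries were left out. Of the Notch list, 6 fell and 1 rose without DMSO replicates 1 and 2, and in the 22-library fit 2 fell, Lfng and Dtx4.

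Differentiated cell types were examined next. Of 35 enterocyte genes, 5 rose and none fell (median 0.07), beside 6.05% higher over all genes. The 5 were the transcription factors Hnf4a (0.41), Cdx2 (0.35) and Klf4, the brush border protein Vil1 (0.19) and the keratin Krt20 (0.27). Klf4 is also on the immediate early list and the others are also on the epithelial list, so these calls are counted there as well. Without DMSO replicates 1 and 2 the enterocyte counts were 5 higher and 4 lower, and Krt20 no longer passed (adjusted p = 0.27). In the 22-library fit 3 rose and none fell. The list median was then below 0, at -0.08 in the 10 libraries and -0.06 in the 22. The summed enterocyte level was 9355 and 9775 CPM in DMSO replicates 1 and 2 and 11151 and 11290 CPM in replicates 3 and 4. With dFz7-21 it was 11014 to 12999 CPM. Alpi, the intestinal alkaline phosphatase, stood at 35.99, 38.8, 44.7 and 47.5 CPM with DMSO and 50.2, 45.6, 48.1 and 43.9 CPM with dFz7-21, which overlapped (log2 change 0.17 ± 0.10, adjusted p = 0.36). That change was 0.01 in the 10 libraries without DMSO replicates 1 and 2 (adjusted p = 0.93).

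In the secretory lineages, Muc2, the main gel-forming mucin of goblet cells (chromosome 7, 141690340 to 141754691), stood at 123, 108, 124 and 122 CPM with DMSO and 156, 165, 173 and 156 CPM with dFz7-21. There was no overlap between groups (log2 change 0.45 ± 0.10, adjusted p = 0.0034). Muc13, a membrane mucin, Gcnt3, a mucin glycosyltransferase, and Clca1, a secreted goblet cell protein, rose by 0.33, 0.52 and 0.37, while the transcription factors Foxa3 and Creb3l1 fell by 0.37 and 0.35. This made 4 higher and 2 lower of 22, beside 6.05% higher and 5.0% lower over all genes. The goblet cell counts without DMSO replicates 1 and 2 were 4 higher and 3 lower, and Clca1 no longer passed (adjusted p = 0.14). In the 22-library fit 2 rose and 1 fell, and Muc2 did not pass (adjusted p = 0.080). Atoh1, which commits cells to the secretory fate, had a log2 change of -0.11 ± 0.10 and did not pass.

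Neurog3, which commits cells to the enteroendocrine fate (chromosome 10, 62133090 to 62134763), stood at 20.3, 17.9, 18.8 and 17.7 CPM with DMSO and 13.7, 15.02, 13.2 and 15.2 CPM with dFz7-21, without overlap (log2 change -0.39 ± 0.09, adjusted p = 0.0055). Sct, the hormone secretin, and Tph1, the enzyme of serotonin synthesis, rose by 1.26 and 0.79, while Chga, a granin of endocrine granules, did not pass (0.09 ± 0.11). In all, 2 of 29 enteroendocrine genes rose and 1 fell, shares near the 6.05% higher and 5.0% lower of all genes. Leaving out DMSO replicates 1 and 2 gave 3 higher and 3 lower, while in the 22-library fit 2 rose and Neurog3 did not pass (adjusted p = 0.085). Of 21 Paneth cell genes, 3 fell, namely the phospholipase Pla2g2a (-0.83), the defensin Defa3 (-0.68) and Wnt3, and 1, the stress-responsive Nupr1, rose. Lyz1, the lysozyme of Paneth cells, stood at 1100.5 ± 69.4 and 1125 ± 63.6 CPM (log2 change 0.03 ± 0.06, not called). Defa3 belongs to a family of near-identical genes, whose uniquely aligned reads make its level uncertain, and its call was lost without dFz7-21 replicate 1 or 2. The Paneth cell list had 1 higher and 5 lower members without DMSO replicates 1 and 2, and in the 22-library fit 2 fell, Pla2g2a and Wnt3. None of 21 tested tuft cell genes passed edgeR's test; 1 was lower at an unadjusted p below 0.05 and DESeq2 called 1 lower. Dclk1, a tuft cell kinase, had a 95% interval of -0.35 to 0.35 on the log2 scale.

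**Figure D5:**
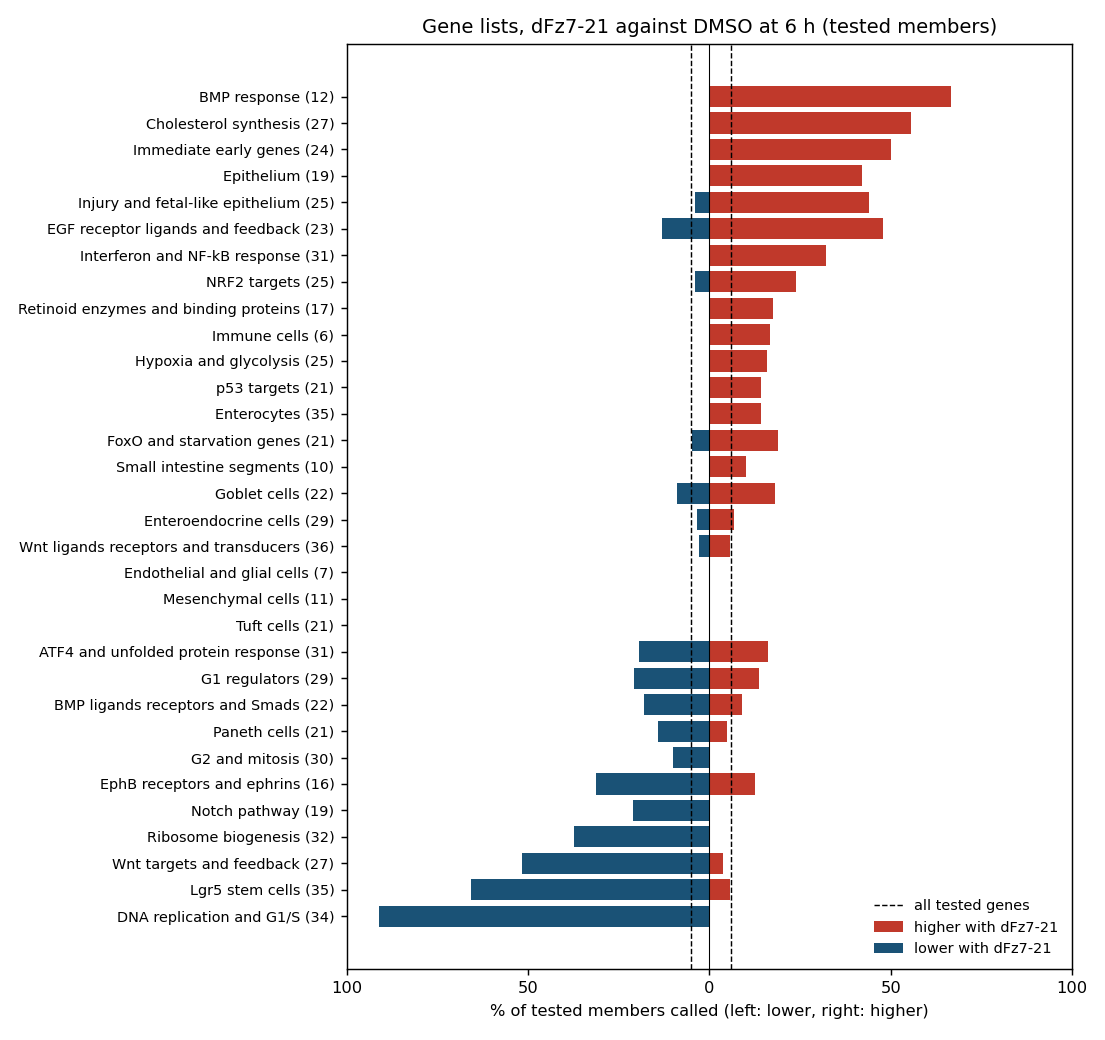
Bars give, for each of the 32 gene lists, the percentage of tested members that were higher (right) or lower (left) with dFz7-21 at an adjusted p of 0.05; the number tested is in parentheses and dashed lines mark all tested genes (6.05% higher and 5.0% lower). DNA replication (31 of 34 lower) and the Lgr5 stem cell list (23 of 35 lower) stand at the left end and the BMP response (8 of 12 higher) and cholesterol synthesis (15 of 27 higher) at the right end.

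Genes of cholesterol synthesis rose by small amounts. Hmgcs1, which makes the precursor of mevalonate (chromosome 13, 119690351 to 119708260), stood at 517, 557, 549 and 522 CPM with DMSO and 714, 624, 693 and 609 CPM with dFz7-21. DMSO and dFz7-21 libraries did not overlap, and the log2 change was 0.30 ± 0.06 (adjusted p = 0.00093). Of 27 genes, 15 rose and none fell (median 0.22), beside 6.05% higher over all genes. The squalene synthase Fdft1 was among those that rose (0.32). Of the 27, 16 rose without DMSO replicates 1 and 2, and in the 22-library fit 6 rose. The sterol regulatory motif TCACNCCAC, searched on both strands, was in 1 of 19 of these promoters in the table and in 0.988% of all. It is the promoter of Hmgcs1, printed to show the match in capitals at 137 bases before the start (chr13:119690101-119690350, plus strand).
Hmgcs1: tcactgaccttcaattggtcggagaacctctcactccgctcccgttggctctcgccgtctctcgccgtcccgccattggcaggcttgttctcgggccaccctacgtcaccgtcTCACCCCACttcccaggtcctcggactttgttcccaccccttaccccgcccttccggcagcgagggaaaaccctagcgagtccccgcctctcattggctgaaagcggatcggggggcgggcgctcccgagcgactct
The promoters of Fdft1 and Sqle are not used here.

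Genes linked to injury, barrier defence and stress were more often higher than lower. Of 25 tested genes of injured or fetal-like epithelium, 11 rose and 1, Hopx, fell (median 0.29), beside 6.05% higher and 5.0% lower over all genes. Sprr1a, a small proline-rich protein of stressed epithelia (chromosome 3, 92483954 to 92485881), stood at 112, 97.9, 122 and 140.3 CPM with DMSO and 229.7, 247, 253 and 219.5 CPM with dFz7-21, without overlap (log2 change 1.01 ± 0.14). Its relative Sprr2a3 and the annexins Anxa1, Anxa3 and Anxa8 rose by 1.22, 0.78, 0.59 and 0.76. Clu and Ly6a, often used as markers of this state, had log2 changes of 0.33 ± 0.11 (adjusted p = 0.0503) and 0.20 ± 0.21 (adjusted p = 0.66) and were not called. Of 31 interferon and NF-kB response genes, 10 rose and none fell (median 0.27), among them the NF-kB inhibitors Nfkbia (0.41) and Tnfaip3 (0.43) and the RNA sensor Ddx58 (0.51). Without DMSO replicates 1 and 2, 16 of the first list rose and 1 fell, and 13 of the second rose and 1 fell. In the 22-library fit 8 of each list rose and none fell.

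The other stress lists were mixed or small, and their counts stand beside 6.05% higher and 5.0% lower over all genes. Of 31 genes of the ATF4 and unfolded protein responses, 5 rose and 6 fell, with Chac1, a glutathione-degrading enzyme, at 0.54 and Cbs, of sulfur amino acid metabolism, at -0.84. Of 25 targets of the oxidative stress factor NRF2, 6 rose and 1 fell. Of 21 p53 targets 3 rose (Cdkn1a, Perp and Pmaip1), of 21 FoxO and starvation genes 4 rose and 1 fell, and of 25 hypoxia and glycolysis genes 4 rose, led by Ndrg1 (0.50). Of 17 tested retinoid genes 3 rose, led by Aldh1a3, which makes retinoic acid (1.28), and of 10 genes that differ along the intestine 1 rose, Onecut2.

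These smaller counts changed with the libraries. Without DMSO replicates 1 and 2, the ATF4 list had 6 higher and 8 lower members, the NRF2 list 9 and 3, the hypoxia list 7 and 1, and the retinoid list 5 and 1. The p53 list then had 4 higher and 1 lower and the FoxO list 4 and 2. In the 22-library fit no NRF2 target passed edgeR's test (5 higher and 2 lower at an unadjusted p below 0.05). That fit left 2 higher and 2 lower of the ATF4 list, 1 higher of the hypoxia list (Ndrg1), 2 higher of the p53 list (Cdkn1a and Perp), 3 higher of the FoxO list and 2 higher and 1 lower of the retinoid list, and Onecut2 did not pass (adjusted p = 0.23).

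Markers of other cell types and of the epithelium were counted in the same way. None of 11 tested mesenchymal genes passed edgeR's test (median -4.61), although 9 were lower at an unadjusted p below 0.05 and DESeq2 called 7 lower. Their median was 0.15 without DMSO replicates 1 and 2. Of 6 tested immune genes, 1 rose: Mrc1, the mannose receptor of macrophages and some endothelia, from 14.03, 14.4, 14.2 and 13.99 CPM to 24.4, 22.9, 24.3 and 21.7 CPM, while the immune list summed to 20.4 to 22.3 CPM with DMSO and 30.9 to 32.6 CPM with dFz7-21 and Cd4 had no reads. None of 7 endothelial and glial genes passed edgeR's test (2 at an unadjusted p below 0.05, 0 with DESeq2), and Cdh5 and Sox10 had no reads. Of 19 epithelial genes, 8 rose and none fell (median 0.22), beside 6.05% higher over all genes. With the 8 libraries alone 15 rose, in the 10 without DMSO replicates 1 and 2 also 15, and in the 22-library fit 2. The part of this epithelial difference in the other results was not tested.

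Outside the lists, the genes that fell most by the naming rule were Ptpro, a receptor tyrosine phosphatase (-1.83 ± 0.19), Rgcc, a regulator of the cell cycle (-1.81 ± 0.18), Scn2b, a sodium channel subunit (-1.66 ± 0.14), Pla2g5, a secreted phospholipase (-1.41 ± 0.15), Sema4c, a semaphorin (-1.34 ± 0.15), Angpt2, an angiopoietin (-1.19 ± 0.13), and Vav3, a guanine nucleotide exchange factor (-1.13 ± 0.10). Ptpro (chromosome 6, 137252299 to 137464634) stood at 8.295, 7.29, 8.47 and 7.63 CPM with DMSO and 1.94, 2.601, 1.99 and 2.37 CPM with dFz7-21. Those that rose most were Epb41l1, a protein of the membrane skeleton (1.40 ± 0.11), Ahrr, the repressor of the aryl hydrocarbon receptor (1.36 ± 0.33), Acer1, a ceramidase (1.27 ± 0.16), Oas3, an oligoadenylate synthetase (1.15 ± 0.29), and Cpm, the membrane carboxypeptidase M (1.14 ± 0.14). Epb41l1 (chromosome 2, 156417595 to 156543214) stood at 15.7, 18.3, 17.4 and 18.9 CPM with DMSO and 49.99, 43.2, 52.1 and 40.02 CPM with dFz7-21. The naming rule takes only called genes whose groups do not overlap, so their lack of overlap is no separate result. Without DMSO replicates 1 and 2 all 12 genes passed in the same direction. In the 22-library fit 10 of the 12 passed, and Ahrr (adjusted p = 0.16) and Oas3 (adjusted p = 0.05) did not.

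Against Fz7-21S at 6 h, 1086 of 15429 genes passed (7.04%, with 495 or 3.21% higher and 591 or 3.83% lower). This comparison shares the dFz7-21 libraries with the one against DMSO, so values are set side by side. Lgr5 stood at 35.7, 44.3, 36.8 and 35.9 CPM with Fz7-21S, all above the dFz7-21 libraries, and the log2 change against Fz7-21S was -1.83 ± 0.18 beside -2.05 ± 0.18 against DMSO. The changes were -1.03 ± 0.06 for Smoc2, -1.29 ± 0.17 for Ascl2 and -1.53 ± 0.15 for Sp5. Id1 stood at 80.8, 85.2, 77.1 and 86.4 CPM with Fz7-21S, near the DMSO values (log2 change 1.44 ± 0.13), and Smad6 changed by 1.62 ± 0.20.

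The list counts against Fz7-21S stand beside 3.21% higher and 3.83% lower over all genes. Of 35 stem cell genes 22 fell and none rose, and of 27 Wnt targets 14 fell and 1 rose. Of 12 BMP response genes 8 rose and 1, Bambi, fell, and 25 of 34 replication genes fell. Cholesterol synthesis had 10 higher members of 27, the immediate early genes 7 of 24, and the EGF receptor list 5 higher and 3 lower of 23. The injury list had 9 higher and 1 lower of 25, and the epithelial list 3 higher of 19. Srxn1, an NRF2 target that repairs peroxiredoxins, stood at 268 ± 16.2 CPM with DMSO, 306 ± 10.7 with Fz7-21S and 315 ± 17.4 with dFz7-21, and its change was 0.23 ± 0.06 against DMSO (adjusted p = 0.0065) and 0.04 ± 0.06 against Fz7-21S (adjusted p = 0.81). Ahrr stood at 3.69 ± 0.793 CPM with Fz7-21S, between 2.58 ± 0.575 with DMSO and 6.61 ± 0.893 with dFz7-21, and did not pass against Fz7-21S (adjusted p = 0.14). The immediate early list summed to 1667 to 1830 CPM with DMSO, 1862 to 1937 with Fz7-21S and 2092 to 2330 with dFz7-21. For the EGF receptor list these sums were 1643 to 1680, 1736 to 1819 and 1875.5 to 2018 CPM. For cholesterol synthesis they were 6128 to 6294, 6319 to 6413 and 6883 to 7346 CPM. Whether Fz7-21S differs from DMSO in these genes or lists was not tested here.

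The effect of dFz7-21 at 24 h was compared with that at 6 h by an interaction term, which 2029 of 15429 genes passed (13.2%, with 7.37% positive and 5.78% negative). Lgr5 had a further log2 change of -2.61 ± 0.26 (adjusted p = 3.94e-07), and the term was -0.91 ± 0.09 for Smoc2, -1.17 ± 0.15 for Axin2 and -0.77 ± 0.09 for Rnf43. Olfm4, not called at 6 h, had a term of -4.03 ± 0.19. Of 35 stem cell genes, 26 had a negative term that passed and none a positive one. The term of Ascl2 was -0.27 ± 0.24 (adjusted p = 0.55), and that of Smad6 0.06 ± 0.27 (adjusted p = 0.93), neither of which passed. Those of Id1 and Id2, -0.67 ± 0.18 and -0.99 ± 0.11, were negative, so their rise was smaller at 24 h. Without the 3 libraries with mesenchymal transcripts (dFz7-21 replicate 3 at 24 h and DMSO replicates 1 and 2 at 6 h), Id1 no longer passed (adjusted p = 0.073), and Id2 did.

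Of 34 replication genes, 3 had a term that passed, all positive, a share near the 7.37% positive of all genes, of which 5.78% were negative. The term of Mcm6 was -0.02 ± 0.07. Of 35 enterocyte genes, 23 had a positive term and none a negative one, Alpi among them at 1.13 ± 0.15 (adjusted p = 7.80e-06). Neurog3 had a term of -1.61 ± 0.13, and 10 of 21 Paneth cell genes had negative terms, Lyz1 at -0.80 ± 0.09. Bmp3, lower at 6 h, had a positive term of 0.70 ± 0.16, and Aldh1a3, higher at 6 h, had a term of -1.69 ± 0.22.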

How the data were processed

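Polyadenylated RNA of 24 organoid samples was sequenced after isolation with an RNeasy Micro kit, per the labels' protocols. The deposited count is the number of uniquely aligned reads per gene model, per the file headers, and the deposited RPKM is scaled by a size factor per sample, per the file headers. The submitters' processing notes name GSNAP and GRCm38; no aligner version, annotation, strand setting or filter is given in the sources used here. Without strand, antisense partners cannot be told apart, and reads that near-identical genes share may be missing. RPKM served only to compare Frizzled transcripts per length. Of 36528 gene models, 31049 took symbols from RefSeq and 77 from GENCODE, and 5402 without symbol (2.54% to 2.71% of counts in the 8 libraries) stayed in the tests.

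Counts were tested with edgeR 4.0.16 (TMM factors, robust quasi-likelihood fit of all 24 libraries, filterByExpr on the 6 groups) in R 4.3.3, with Benjamini-Hochberg adjustment over the 15429 genes kept and calls at an adjusted p of 0.05. Contrasts were dFz7-21 against DMSO and against Fz7-21S at 6 h, and the 24 h minus the 6 h effect. DESeq2 1.42.0, RLE factors, no filter, a replicate block, a minimum fold of 1.2 and smaller sets of libraries were tried as well. The procedure was tested on simulated data. The floor of 3 counts covers counting error only.

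Named genes are the 12 that rose and 12 that fell most of the called genes whose groups do not overlap, whose log2 CPM averages at least 2 and whose symbol is established, plus 31 fixed genes, 4 members of smallest p per list and 5 of the interaction; other list members serve as examples. The 32 lists hold 822 members, of which 821 were found, and the members and lists were chosen with earlier results of these data known. Promoters are RefSeq's on GRCm38.p6, and positions count from 1.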

Additional observations from a re-analysis of the deposited data

Results flagged for a closer look

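Single libraries stood apart from the other 3 of their group in 19 of 310 groups of 4 (155 named genes in 2 groups), where the gap to the nearest library exceeded Dixon's 95% critical share of the group's range. Chance gives about 1 in 20 such groups. Of these, 2 fell in DMSO replicate 1, 3 in DMSO replicate 2, 1 in DMSO replicate 3 and 5 in DMSO replicate 4. In dFz7-21 replicates 1, 2 and 3 there were 1, 3 and 4.

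Col1a1 was high at 80.6 CPM in DMSO replicate 1, a library with mesenchymal transcripts, and Smad6 was low there at 2.1 CPM. In DMSO replicate 2, Rnf43 was high at 168.9 CPM and Mcm2 at 216.4 CPM, and Muc2 was low at 107.8 CPM. Gata4, a transcription factor of the proximal intestine, was high at 124.9 CPM in DMSO replicate 3. DMSO replicate 4 was high for Nkd1 (5.099 CPM), Ccnd1 (234.8 CPM) and Tubb2b, a tubulin (25.85 CPM), and low for Ttk (24.03 CPM) and Chac1 (6.64 CPM). The DMSO and dFz7-21 libraries overlapped for Nkd1, Gata4 and Col1a1 and not for the other 8 genes.

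Of the dFz7-21 libraries, replicate 1 was high for the tight junction protein Ocln (350.4 CPM). Replicate 2 was high for Smad7 (24.2 CPM) and low for the nucleolar Dkc1 (124.5 CPM) and for Hoxb6 (1.064 CPM). Replicate 3 was high for Aldh1a3 (43.81 CPM) and Tph1 (18.6 CPM) and low for Mki67 (192.7 CPM) and Kif20a (68.91 CPM). No library held most of them.

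The dFz7-21 effect differed between 24 h and 6 h, by the interaction term of edgeR's quasi-likelihood test with Benjamini-Hochberg adjustment, in 68 of the 155 named genes, 23 with a positive and 45 with a negative term. All values below are the log2 effect at 24 h minus that at 6 h. Stem cell and Wnt target genes had negative terms: Olfm4 -4.03, Lgr5 -2.61, Clca3b -1.98, Nkd1 -1.22, Axin2 -1.17, Ephb3 -0.99, Smoc2 -0.91, Sp5 -0.87, Bambi -0.86, Rgmb -0.83, Tnfrsf19 -0.82, Rnf43 -0.77 and Myc -0.34. Those of the Wnt components Fzd7 (-0.82) and Tcf7l2 (-0.31) were negative too. The level of these genes relative to DMSO was thus lower at 24 h than at 6 h. Without the 3 libraries with mesenchymal transcripts, 4 of them no longer passed. These were Nkd1 (adjusted p = 0.17), Sp5 (0.063), Bambi (0.053) and Tcf7l2 (0.084).

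Among genes that had risen at 6 h, terms were negative for Cpm (-2.09), Aldh1a3 (-1.69), Tubb2b (-1.67), Id2 (-0.99), Anxa3 (-0.81), Onecut2 (-0.79), Epha2 (-0.74), Mrc1 (-0.68), Id1 (-0.67), Ccng2 (-0.67), Rdh10 (-0.65), Btc (-0.62), Epb41l1 (-0.60), Tbx3 (-0.50), Gadd45b (-0.46), Gcnt3 (-0.45), Nupr1 (-0.43) and Ocln (-0.36). Relative to DMSO, these genes were thus lower at 24 h than at 6 h. The terms of Cpm and Aldh1a3 exceeded their rises at 6 h (1.14 and 1.28), which puts their 24 h estimates below DMSO. Genes of other groups with negative terms were Cbs (-2.12), Neurog3 (-1.61), Atp2c2 (-1.51), Angpt2 (-1.48), Esam (-1.30), Hpgds (-1.11), Defa3 (-0.97), Lfng (-0.88), Lyz1 (-0.80), Foxa3 (-0.77), Efna4 (-0.47) and Nusap1 (-0.36).

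Positive terms of epithelial and metabolic genes were those of Ces1g (1.75), Alpi (1.13), Cbr3 (0.85), Muc2 (0.72), Bmp3 (0.70), Chga (0.61), Srxn1 (0.61), Lrig3 (0.58), Krt20 (0.58), Nqo1 (0.55), Oasl1 (0.52), Pfkp (0.49), Shmt2 (0.48), Rfng (0.47), Slc10a2 (0.46), Trib3 (0.37) and Chac1 (0.33). The other 6 were mesenchymal genes, Col1a1 (16.46), Col5a2 (13.31), Col5a1 (12.54), Sparc (11.38), Fn1 (10.91) and Vim (7.36). These move with the 3 libraries that hold mesenchymal transcripts. Without those libraries, 67 of the 68 genes were tested, 66 kept their sign, 50 also passed, and Col5a2 changed sign (adjusted p = 0.78). Besides the mesenchymal genes, Nkd1, Sp5, Bambi, Tcf7l2, Id1 and Efna4 no longer passed. Nor did Nupr1, Chac1, Trib3, Mrc1, Ocln and Onecut2.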

How the results depend on the processing

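Of 2624 values of the 155 named genes under other settings, 2405 stayed on the same side of the threshold, 169 lost their call and 50 gained one. None of the 117 called genes changed sign under the settings run, while 7 genes not called did, in 24 values, all not called: Nkd1, Lyz1, Dclk1, Vim, Col5a2, Csf1r and Ces1g. Of the 117 called genes, 81 were called in every setting other than a minimum fold of 1.2, and 15 lost their call when some single library was left out. The count of 1704 genes became 3640 in the 8 libraries alone, 3863 in the 12 libraries at 6 h, 259 with a minimum fold of 1.2, 654 without DMSO replicates 1 and 2 and 2560 without them in the 6 h libraries. The cause was not tested. It stayed within 1.5-fold with RLE factors (1698), no filter (1317), DESeq2 (2166) and each library left out (1172 to 1636). Against Fz7-21S, the 1086 genes became 638 to 896 with a library left out, at 638 without dFz7-21 replicate 3, 666 without Fz7-21S replicate 2 and 670 without dFz7-21 replicate 1. The 2029 interaction genes stayed at 1771 to 2073, and at 1618 without the 3 libraries with mesenchymal transcripts.

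Replicate numbers are shared between groups, and the deviations of same-numbered DMSO and dFz7-21 libraries were hardly correlated (-0.044, 0.029, -0.005 and 0.041 in order of replicate). The labels do not say whether same-numbered samples are paired. Correlations over all tested genes can miss a weak pairing, so they cannot decide this. With the replicate number as a block, 1720 genes passed against DMSO, 1075 against Fz7-21S and 1947 for the interaction, and not every sample correlated best with its own number. On counts simulated with the layout of this comparison (15139 genes, 200 changed), 93% of 1.5-fold and 99% of 2-fold changes were recovered with 13 false calls. The spread was assumed rather than estimated from these libraries, and only well-counted genes were changed. No library with mesenchymal transcripts or unusual spread was simulated. These rates therefore check that the procedure runs and do not give the recovery in the real libraries. Depth limits genes near 3 counts, such as Col1a1 outside the mesenchymal libraries.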
